A study of Mus musculus with 54 samples.

Results

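The 32 genes described here are the unfolded protein and ER stress response genes of mouse: the chaperones, disulfide isomerases and degradation factors of the endoplasmic reticulum, the sensors of misfolded protein in its membrane, and the genes of the ATF4 arm. They were chosen by name, for their place in this response, from the 47729 genes of the count files. Earlier results of these data were known when they were chosen. All 32 were found, and all passed the filter on low counts, which kept 14625 genes for testing. RNA-seq counts came from 40 libraries of cXEN cells, a stem cell line of the extraembryonic endoderm, in 20 groups of 2. The Gata6-FKBP and Sox17-FKBP lines carry an FKBP degradation tag on the transcription factor in their name, and the compound dTAGV1 sends the tagged protein to the proteasome. Each line received 500 nM dTAGV1 for 6, 24, 48, 72 or 96 h, or DMSO, called 0 h. The same lines with a FoxA2-/- mutation received dTAGV1 for 48 h or DMSO. A BMP4 series in Gata6-FKBP cells had 24 or 72 h of 25 ng/ml BMP4 in N2B27 without serum. Its 0 h cells had 24 h of N2B27 with 1% FBS, and the labels list this adaptation of 24 h for the BMP4 groups too. The addition of BMP4, the removal of serum and the longer time in culture after adaptation therefore cannot be told apart. Parental cXEN cells made up the last group, and the medium outside the BMP4 series was Advanced RPMI with 15% FBS. The labels give no number of clones and do not say that replicates were separate cultures, so p-values measure the spread between these libraries, which may be technical.

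Proteins that enter the secretory pathway fold in the ER with the help of the Hsp70 chaperone BiP (Hspa5), lectin chaperones and disulfide isomerases. Those that fail to fold are sent back to the cytosol for destruction, a route called ER-associated degradation. When unfolded protein builds up, the sensors IRE1 (Ern1), ATF6 and PERK (Eif2ak3) are activated: IRE1 splices Xbp1 mRNA, ATF6 is cut to release a transcription factor, and PERK phosphorylates eIF2α, which slows translation in general and favours that of ATF4. XBP1 and ATF6 turn on chaperone and degradation genes, and ATF4 turns on Ddit3, Trib3, Asns and others, which further eIF2α kinases can also start. Extraembryonic endoderm secretes much basement membrane and other protein and depends on this machinery. Gene counts show neither the splicing of Xbp1, nor the translation of ATF4, nor any protein level.

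Several members carry in their promoters the letters of the sites through which the response acts. Whether a match goes with a change in the comparisons was not tested. RefSeq promoter windows on GRCm38.p6, from 250 bases before to 50 bases after a start, were found for 28 of the 32 members. The ER stress response element (ERSE), CCAAT and CCACG with any 9 bases between them on either strand, was in the windows of 8 of these 28 genes and in 0.119% of all 32851 windows. ERSE-II, ATTGG and CCACG with any base between them, was in those of Dnajb11 and Herpud1 and in 0.0365% of all windows. The C/EBP-ATF response element (CARE), TGATGNAA, was in those of Herpud1, Trib3, Chac1 and Asns and in 3.97% of all windows. The UPRE letters TGACGTGG were in 0.676% of all windows and in 0 of the 28. A match describes these letters and is not a measured binding site. The ERSE letters are shown with 10 bases on either side, 5′ to 3′ on the strand of the match, with the fixed letters in capitals.

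Hspa5, chr2:34772015-34772053, plus strand: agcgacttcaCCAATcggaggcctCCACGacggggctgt
Hsp90b1, chr10:86705628-86705666, minus strand: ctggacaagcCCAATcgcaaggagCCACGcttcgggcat
Hsp90b1, chr10:86705523-86705561, plus strand: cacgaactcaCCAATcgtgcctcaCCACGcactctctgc
Calr, chr8:84847065-84847103, plus strand: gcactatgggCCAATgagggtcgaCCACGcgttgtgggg
Canx, chr11:50325790-50325828, minus strand: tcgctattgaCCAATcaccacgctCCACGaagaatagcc
Dnajc3, chr14:118937817-118937855, plus strand: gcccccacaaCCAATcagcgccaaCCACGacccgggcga
Creld2, chr15:88819510-88819548, minus strand: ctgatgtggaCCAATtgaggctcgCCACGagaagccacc
Pdia6, chr12:17266481-17266519, plus strand: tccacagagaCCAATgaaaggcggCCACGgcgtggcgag
Syvn1, chr19:6046522-6046560, plus strand: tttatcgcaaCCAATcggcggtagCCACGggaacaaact

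Hsp90b1 had a pair of these matches and the other 7 genes had 1 each. The ERSE-II and CARE letters that lie before the start are shown in the same way, while those of Dnajb11 and Trib3 lie past it and are not printed.
Herpud1, CARE, chr8:94386307-94386334, minus strand: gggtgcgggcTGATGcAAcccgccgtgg
Herpud1, ERSE-II, chr8:94386367-94386397, plus strand: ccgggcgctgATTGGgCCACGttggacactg
Chac1, CARE, chr2:119351039-119351066, minus strand: ctggcaggagTGATGcAAcggcagggaa
Asns, CARE, chr6:7693215-7693242, minus strand: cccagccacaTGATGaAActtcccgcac

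For 3 members the 250 bases before the start are given whole, since they hold the kinds of site that set the arms of the response apart: Hspa5 with ERSE letters, Herpud1 with ERSE-II and CARE letters, and Chac1 with CARE letters. Capitals mark the fixed letters of a match on either strand.
Hspa5, chr2:34771840-34772089, plus strand: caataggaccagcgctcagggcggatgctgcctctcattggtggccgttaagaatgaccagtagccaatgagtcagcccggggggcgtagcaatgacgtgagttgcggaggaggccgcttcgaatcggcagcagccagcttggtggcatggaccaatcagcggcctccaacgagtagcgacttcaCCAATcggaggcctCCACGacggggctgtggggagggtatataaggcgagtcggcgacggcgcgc
Herpud1, chr8:94386179-94386428, plus strand: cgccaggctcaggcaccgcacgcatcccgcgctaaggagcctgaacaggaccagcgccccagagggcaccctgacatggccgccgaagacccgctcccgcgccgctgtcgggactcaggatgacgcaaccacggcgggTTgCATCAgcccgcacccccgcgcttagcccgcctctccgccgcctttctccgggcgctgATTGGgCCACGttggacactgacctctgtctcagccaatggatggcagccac
Chac1, chr2:119350992-119351241, plus strand: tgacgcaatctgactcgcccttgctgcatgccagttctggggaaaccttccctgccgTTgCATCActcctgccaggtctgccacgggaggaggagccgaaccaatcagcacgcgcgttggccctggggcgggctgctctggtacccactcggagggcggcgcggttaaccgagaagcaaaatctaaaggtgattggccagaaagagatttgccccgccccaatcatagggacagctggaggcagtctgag

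**Figure D1:**
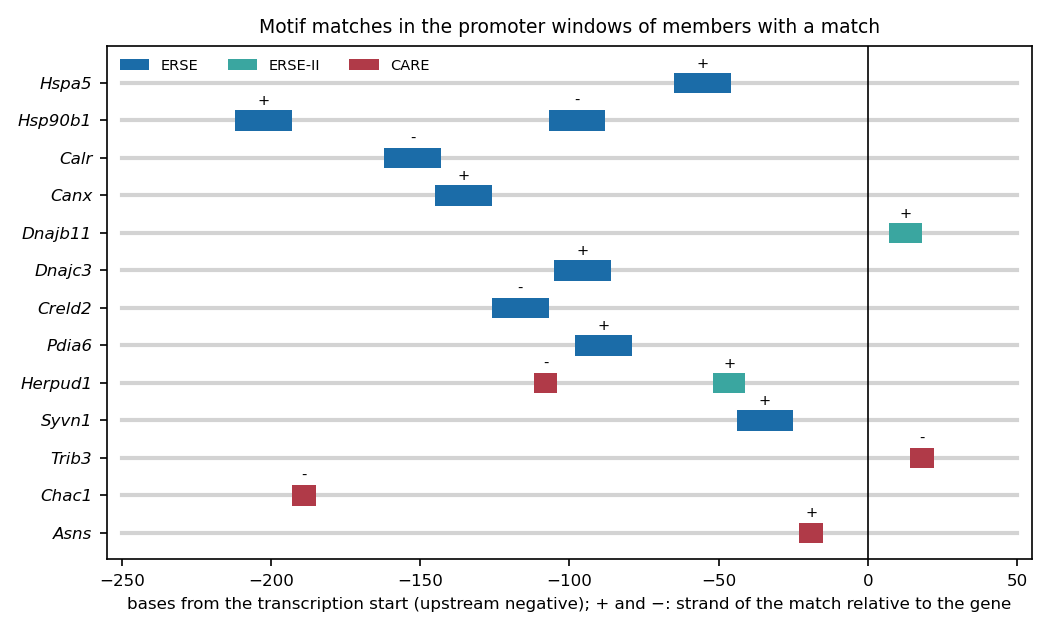
Motif matches in the promoter windows of the members that hold one. Each grey line is a window of 300 bases, the horizontal axis gives bases from the transcription start with upstream negative, coloured boxes are ERSE, ERSE-II or CARE matches, and the sign above a box is its strand relative to the gene. The ERSE letters of all 8 genes lie before the start, and the matches of Dnajb11 and Trib3 lie past it.

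Levels are given in CPM, counts per 1 M reads on TMM-scaled library sizes, which are not divided by transcript length and are compared only within a gene. Libraries held 16.2 to 42.5 M reads in genes, of which the members took 1.44 to 2.88%, and the lowest count of any member in any library was 91, for Chac1. Reads outside genes ran from 3.99 to 10.4 per 100 reads in genes, highest at 72 h of BMP4. The pairs that differed most were BMP4 at 24 h, with a chi-square per degree of freedom of 53.3 over genes, and Sox17 degradation at 24 h, with 36.1, against a median of 3.94. RNA does not check the degradation of a tagged protein: Gata6 averaged 314 CPM at 48 h and 269 CPM at 0 h in its line, and Sox17 243 CPM at 48 h and 265 CPM at 0 h in its own. Nor did RNA show the mutation, as Foxa2 averaged 112 CPM in FoxA2-/- and 124 CPM in intact Gata6-FKBP cells, and 87.99 CPM in FoxA2-/- and 120.2 CPM in intact Sox17-FKBP cells. Of 10 extraembryonic endoderm markers 9 were abundant in every library, and Col4a1 ran from 0.904 to 15879 CPM.

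Across the 20 groups 4 members of the ATF4 arm varied most. The highest group mean was 9.27 times the lowest for Chac1, a glutathione-degrading enzyme, and 8.98 times for Trib3, a pseudokinase induced by ATF4 and CHOP. It was 7.29 times for Asns, the asparagine synthetase, and 6.48 times for Ddit3, which encodes CHOP. The widest range among the chaperones was 4.85 times for Hsp90b1, the ER member of the Hsp90 family, and the narrowest of all members was 1.56 times for Derl2, a derlin of the exit channel for misfolded proteins. The group at 72 h of BMP4 had the lowest mean of 11 members, among them Hspa5, Calr, Manf and P4hb.

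Degradation of Gata6 was followed from 48 h by higher levels of the ATF4 arm and the isomerases, while Xbp1 and Eif2ak3 fell. The test was edgeR's quasi-likelihood test with Benjamini-Hochberg adjustment over all genes tested, at an adjusted p under 0.05, and a value after ± is a standard error (SE). At 48 h 13 members were higher and 4 lower than at 0 h, beside calls for 40.1% of all genes, 18.2% higher and 21.9% lower. At 72 h 15 members were higher and 4 lower, beside 39.6% of all genes, 17.8% higher and 21.9% lower. At 96 h 15 members were higher and 4 lower, beside 40.3% of all genes, 18.2% higher and 22.1% lower. Without replicate 1 at 0 h 12 members were called at 72 h, and without replicate 1 at 96 h 12 at 96 h. The median log2 change of the members was 0.20, 0.14 and 0.18 at 48, 72 and 96 h, and that of all genes 0.00, 0.00 and 0.00. All times of a line share the same pair of 0 h libraries, so they do not check one another, and in bulk RNA fewer cells of a kind and less RNA per cell cannot be told apart.

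In the ATF4 arm 5 of 7 members rose at 48 h, 7 at 72 h and 6 at 96 h. Ddit3 had 17.4 and 20.6 CPM at 0 h, 18.3 and 17.99 at 6 h and 18.7 and 19.98 at 24 h. It had 56.96 and 49.8 at 48 h, 61.4 and 62.6 at 72 h and 45.8 and 54.3 at 96 h. The libraries of the first 24 h lie together and those from 48 h far above them (log2 change 1.49, SE 0.11, adjusted p = 2.38e-11), with changes of 1.71 ± 0.11 at 72 h and 1.40 ± 0.11 at 96 h. Trib3 had 12.1 and 12.3 CPM at 0 h, 15.2 and 17.5 at 6 h and 15.4 and 17.05 at 24 h. It had 35.04 and 27.8 at 48 h, 38.5 and 45.1 at 72 h and 27.1 and 38.03 at 96 h. It too stepped up between 24 and 48 h (log2 change 1.37, SE 0.20, adjusted p = 2.09e-06) and was at 1.78 ± 0.19 at 72 h. Chac1 had 7.104 and 8.16 CPM at 0 h, 8.06 and 7.496 at 6 h and 9.41 and 7.93 at 24 h. It had 11.8 and 9.14 at 48 h, 17.6 and 21.1 at 72 h and 12.6 and 16.9 at 96 h. It came later: its change did not pass at 48 h (log2 change 0.46, SE 0.21, adjusted p = 0.0832) and passed at 72 h (log2 change 1.35, SE 0.20, adjusted p = 4.04e-06). Atf5, a transcription factor related to ATF4, had 164 and 155 CPM at 48 h, against 102 and 117 at 0 h (log2 change 0.54, SE 0.12, adjusted p = 0.000436), with no overlap. Ppp1r15a, whose GADD34 protein reverses eIF2α phosphorylation, rose by 0.42, 0.38 and 0.36 on the log2 scale at 48, 72 and 96 h. Asns rose by 0.25, 0.28 and 0.18 at these times. Atf4 was called at 72 h (0.23 ± 0.08), and at 48 h it had 298 and 278 CPM, against 269 and 305 at 0 h (0.01 ± 0.08). Calls of Ddit3, Trib3 and, from 72 h, Chac1 held whichever library was left out. Adjusted p rose above 0.05 at 48 h for Asns (0.134) without Gata6-FKBP 0 h replicate 1, at 72 h for Asns (0.0875) and Atf4 (0.19) without Gata6-FKBP 0 h replicate 1, Ppp1r15a (0.109) without Gata6-FKBP 72 h replicate 2, and at 96 h for Atf5 (0.248) and Asns (0.406) and Ppp1r15a (0.0831) without Gata6-FKBP 0 h replicate 1.

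All 4 disulfide isomerases, which form and shuffle disulfide bonds in folding proteins, were higher at 48, 72 and 96 h. Pdia6 had 1194 and 1185 CPM at 48 h, against 962 and 1049 at 0 h (log2 change 0.24, SE 0.06, adjusted p = 0.000925). Pdia3, the ERp57 partner of the lectin chaperones, had 1789 and 1831 CPM at 48 h, against 1595 and 1495 at 0 h (log2 change 0.23, SE 0.07, adjusted p = 0.00607). P4hb, the classical protein disulfide isomerase, had 3671 and 3416 CPM at 72 h, against 2834 and 3129 at 0 h (log2 change 0.25, SE 0.06, adjusted p = 0.002). In each of these the treated libraries lie above both at 0 h, and over the 4 genes and 3 times the log2 changes ran from 0.18 to 0.27. With 1 library left out, adjusted p at 48 h rose above 0.05 for Pdia3 (0.0949) without Gata6-FKBP 0 h replicate 2, Pdia4 (0.0675) and P4hb (0.155) without Gata6-FKBP 0 h replicate 1. It did so at 72 h for Pdia3 (0.119) without Gata6-FKBP 0 h replicate 2, Pdia4 (0.111) and Pdia6 (0.123) without Gata6-FKBP 0 h replicate 1, and at 96 h for Pdia4 (0.16) without Gata6-FKBP 96 h replicate 1, Pdia6 (0.05) and P4hb (0.227) without Gata6-FKBP 0 h replicate 1.

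Of the degradation factors, Edem1, a lectin-like protein that hands misfolded glycoproteins to the degradation machinery, had 237 and 248 CPM at 0 h, 258 and 252 at 6 h and 249.9 and 251 at 24 h. It had 362 and 345 at 48 h, 349 and 359.8 at 72 h and 346 and 316 at 96 h. Its libraries from 48 h do not overlap those at 0 h (log2 change 0.54, SE 0.05, adjusted p = 4.71e-09), with 0.55 ± 0.05 at 72 h and 0.45 ± 0.05 at 96 h, and no left-out library ended these calls. Sel1l, the adaptor of the ubiquitin ligase complex, had 312 and 305 CPM at 48 h, against 248 and 259.7 at 0 h (log2 change 0.28, SE 0.09, adjusted p = 0.0111). Herpud1, a scaffold of the same complex, went the other way, with 57.5 and 52.5 CPM at 48 h, against 61.5 and 66.98 at 0 h (log2 change -0.22, SE 0.09, adjusted p = 0.048). The call of Herpud1 was lost under median-of-ratios scaling (adjusted p = 0.0939), with DESeq2 (0.111) and in each fit that left out a library (0.0554 to 0.31). Adjusted p of Sel1l rose above 0.05 at 48 h without replicate 1 at 0 h (0.0636) or replicate 1 at 48 h (0.055).

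The chaperones moved early and late. At 6 h 6 members were higher and 4 lower, beside 13.9% of all genes, 3.43% higher and 10.4% lower, and at 24 h 6 members were higher and 4 lower, beside 21.4% of all genes, 7.11% higher and 14.3% lower. The 4 that fell were the same at both times: Hsp90b1, Dnajc3, Canx and Hspa5. Hsp90b1 had 1987 and 1402 CPM at 0 h, 934 and 1024 at 6 h and 846 and 865 at 24 h. It had 2033 and 2263 at 48 h, 1482 and 1922 at 72 h and 2490.2 and 2117 at 96 h. The pair at 0 h is wide, and all libraries at 6 and 24 h lie below it (log2 change -0.79, SE 0.18, adjusted p = 0.00629 at 6 h, and -0.99 ± 0.18 at 24 h). Dnajc3, the co-chaperone P58IPK, had 119 and 116 CPM at 24 h, against 198 and 159 at 0 h (log2 change -0.60, SE 0.13, adjusted p = 0.00249). Canx, the membrane lectin calnexin, had 594 and 621 CPM at 24 h, against 932 and 806 at 0 h (log2 change -0.52, SE 0.10, adjusted p = 0.000776). Hspa5 had 2250.0 and 2145 CPM at 0 h, 1892 and 1921 at 6 h and 1707 and 1696 at 24 h. It had 2572 and 2542 at 48 h, 2226 and 2406 at 72 h and 2837 and 2429.9 at 96 h. Its pair at 24 h is the lowest of the course (log2 change -0.37, SE 0.06, adjusted p = 0.000405). Of the early rises, Calr, the soluble lectin calreticulin, had 4916 and 4993 CPM at 24 h, against 3807 and 4193 at 0 h (0.31 ± 0.07), and Pdia4 (0.18 ± 0.06), Syvn1 (0.21 ± 0.07) and Xbp1 (0.26 ± 0.07) were also higher at 6 and 24 h. These calls lean on single libraries: without replicate 1 at 0 h edgeR called 0 members at 6 h and 1, Hspa5, at 24 h, and without replicate 1 at 6 h it called 0 at 6 h, while with all libraries 20 had an unadjusted p under 0.05 at 6 h and DESeq2 called 12. The count was 3 without replicate 2 at 6 h, and at 24 h it was 5 without replicate 1 and 6 without replicate 2 of that time.

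The step between 24 and 48 h uses none of the 0 h libraries. At 48 h 11 members were higher and 8 lower than at 24 h, beside 54.1% of all genes, 27.2% higher and 26.9% lower. The share of members called, 59.4%, was near that of all genes, and their median log2 change was 0.11, against 0.00 for all genes. Hsp90b1 had 2033 and 2263 CPM at 48 h, against 846 and 865 at 24 h (log2 change 1.33, SE 0.18, adjusted p = 5.6e-07), far outside the spread of either pair. Dnajc3 rose by 0.87, Canx by 0.64 and Dnajb9 by 0.75 on the log2 scale. Ddit3 rose by 1.47 (adjusted p = 2.36e-11), Trib3 by 0.95 and Edem1 by 0.50. Xbp1 had 174 and 159 CPM at 48 h, against 272 and 263 at 24 h (log2 change -0.68, SE 0.07, adjusted p = 1.94e-08), while Herpud1 changed by -0.49 ± 0.09 and Eif2ak3 by -0.47 ± 0.09. Of the 19 calls, that of Atf4 (-0.20) was the 1 lost when a library was left out, with an adjusted p of 0.201 without replicate 2 at 48 h. Reads outside genes were 7.81 per 100 at 48 h and 5.24 at 24 h, and with them as a covariate adjusted p was 0.207 for Canx, 0.255 for Dnajc3 and 0.112 for Dnajb9.

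Late in the course Dnajb9, the J-domain co-chaperone ERdj4 and a target of XBP1, had 19.1 and 16.1 CPM at 0 h, 15.4 and 15.2 at 6 h and 14.1 and 15.96 at 24 h. It had 25.8 and 24.8 at 48 h, 27.7 and 28.6 at 72 h and 29.2 and 26.4 at 96 h. Its libraries from 48 h are above those at 0 h (log2 change 0.52, SE 0.11, adjusted p = 0.000493), with 0.68 ± 0.11 at 72 h. Dnajb11, the co-chaperone ERdj3 that binds unfolded proteins with BiP, had 404 and 382 CPM at 48 h, against 475 and 501 at 0 h (log2 change -0.31, SE 0.06, adjusted p = 8.15e-05). It stayed low, with -0.33 ± 0.06 at 72 h and -0.27 ± 0.06 at 96 h. Manf, a small secreted protein induced by ER stress, had 301 and 282 CPM at 72 h, against 338 and 366 at 0 h (log2 change -0.27, SE 0.07, adjusted p = 0.00435). Hspa5 was higher at 48 h (log2 change 0.22, SE 0.06, adjusted p = 0.00726) and Hsp90b1 at 96 h (log2 change 0.44, SE 0.17, adjusted p = 0.0449). Calls of Dnajb9 and Dnajb11 held without any 1 library, and adjusted p rose above 0.05 for Hspa5 (0.0844) without Gata6-FKBP 0 h replicate 2, for Manf (0.0787) without Gata6-FKBP 72 h replicate 2 and for Hsp90b1 (0.483) without Gata6-FKBP 0 h replicate 2. With reads outside genes as a covariate the change of Hsp90b1 turned round, to -0.180 at 96 h (adjusted p = 0.428).

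Among the sensors and their factors, Xbp1 had 217 and 231 CPM at 0 h, 272 and 270.0 at 6 h and 272 and 263 at 24 h. It had 174 and 159 at 48 h, 203 and 175 at 72 h and 184 and 188 at 96 h. It stood above 0 h in the first 24 h (0.27 ± 0.07 at 6 h) and below it from 48 h (log2 change -0.43, SE 0.07, adjusted p = 3.69e-05), with -0.25 ± 0.07 at 72 h and -0.27 ± 0.07 at 96 h. Eif2ak3 had 108 and 105 CPM at 0 h, 103 and 96.5 at 6 h and 104 and 111 at 24 h. It had 77.6 and 78.4 at 48 h, 96.99 and 80.8 at 72 h and 81.2 and 87.5 at 96 h. Every library from 48 h lies below both at 0 h (log2 change -0.45, SE 0.09, adjusted p = 0.000227). Ern1 was called at 72 h, with 24.5 and 25.1 CPM, against 19.02 and 19.5 at 0 h (log2 change 0.36, SE 0.10, adjusted p = 0.00487), and Atf6 at none of the times. Falls of Xbp1 and Eif2ak3 held at 48 h without any 1 library, but adjusted p rose above 0.05 for Xbp1 (0.255) and Eif2ak3 (0.419) without Gata6-FKBP 72 h replicate 2, and for Xbp1 (0.0655) without Gata6-FKBP 0 h replicate 2 and Eif2ak3 (0.0647) without Gata6-FKBP 96 h replicate 1. At 72 h both were lost under median-of-ratios scaling (adjusted p = 0.0571 and 0.0947), which gave 17 members higher and 2 lower.

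**Figure D2:**
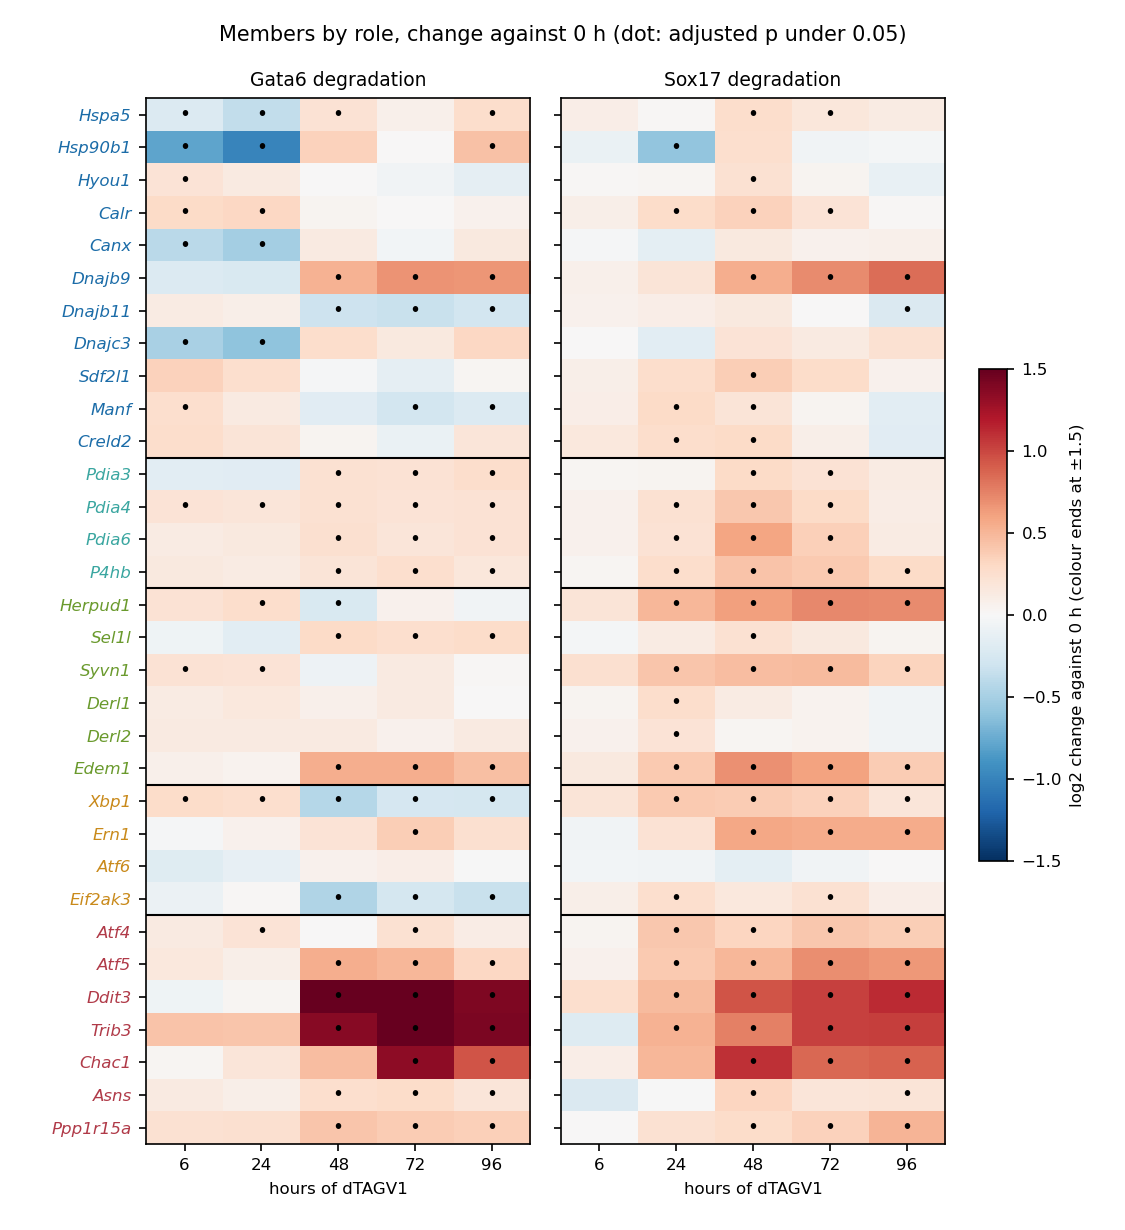
Log2 change of each member against 0 h after degradation of Gata6 (left) and of Sox17 (right). Rows are the 32 members by role, columns are hours of dTAGV1, red is higher and blue lower than at 0 h with the colour ending at 1.5 either way, and a dot marks an adjusted p under 0.05. At 48 h Xbp1 is at -0.43 after Gata6 degradation and 0.38 after Sox17 degradation, and Ddit3 at 1.49 and 0.95.

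Degradation of Sox17 was followed by a rise spread over all roles, among which Herpud1, Edem1, Pdia6 and the ATF4 arm stood out. At 6 h edgeR called 0 members and DESeq2 1, with 6 at an unadjusted p under 0.05, beside 1.74% of all genes, 0.991% higher and 0.752% lower. At 24 h 17 members were higher and 1 lower, beside 30.4% of all genes, 17.4% higher and 13% lower. At 48 h 24 members, all of those called, were higher, beside 30.9% of all genes, 16.3% higher and 14.6% lower. At 72 h it was 19, again all higher, beside 36.1% of all genes, 21.2% higher and 15% lower, and at 96 h 14 members were higher and 1 lower, beside 40.5% of all genes, 23.3% higher and 17.2% lower. The median log2 change of the members was 0.24, 0.32, 0.25 and 0.12 at 24, 48, 72 and 96 h, and that of all genes 0.04, 0.02, 0.04 and 0.06. The pair at 24 h is wide: 7 members were called without replicate 1 at 24 h and 10 without replicate 1 at 0 h, and a fit of these 4 libraries alone called 0, with an adjusted p of 0.0573 for Herpud1, where edgeR on all libraries gave 22 an unadjusted p under 0.05 and DESeq2 called 18.

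In the ATF4 arm 4 of 7 members were higher at 24 h, 7 at 48 h, 6 at 72 h and 7 at 96 h. Ddit3 had 13.9 and 13.96 CPM at 0 h, 16.9 and 16.4 at 6 h and 19.7 and 19 at 24 h. It had 27.6 and 26.2 at 48 h, 28.7 and 27.9 at 72 h and 31.2 and 29.3 at 96 h. Every pair from 24 h lies above the pair at 0 h (log2 change 0.47, SE 0.11, adjusted p = 0.0019 at 24 h), and the change was 0.95 ± 0.11 at 48 h and 1.12 ± 0.11 at 96 h. Trib3 had 7.89 and 8.68 CPM at 0 h, 6.37 and 8.15 at 6 h and 12.7 and 11.1 at 24 h. It had 14.3 and 13.7 at 48 h, 15.2 and 18.7 at 72 h and 17.7 and 16.5 at 96 h. Its changes were 0.75 ± 0.19 at 48 h and 1.04 ± 0.19 at 96 h. Chac1 had 3.61 and 4.28 CPM at 0 h, 3.602 and 4.904 at 6 h and 6.44 and 4.74 at 24 h. It had 8.996 and 8.08 at 48 h, 7.62 and 6.84 at 72 h and 7.24 and 7.48 at 96 h. Its pair at 48 h is the highest (log2 change 1.10, SE 0.21, adjusted p = 0.000132). Atf4 had 289 and 254 CPM at 24 h, against 203 and 206 at 0 h (log2 change 0.41, SE 0.08, adjusted p = 0.000165), and Atf5 86.4 and 89.4 CPM at 72 h, against 53.9 and 54.3 at 0 h (log2 change 0.70, SE 0.12, adjusted p = 2.26e-05). Asns rose by 0.32 and Ppp1r15a by 0.27 on the log2 scale at 48 h. Adjusted p rose above 0.05 for Ppp1r15a (0.339) without Sox17-FKBP 48 h replicate 1 and for Asns (0.176) without Sox17-FKBP 96 h replicate 1.

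Of the degradation factors, Herpud1 had 61.1 and 63.9 CPM at 0 h, 73.3 and 69.6 at 6 h and 93.1 and 84.1 at 24 h. It had 95.1 and 95.9 at 48 h, 104 and 102 at 72 h and 101 and 103 at 96 h. Every pair from 24 h lies above the pair at 0 h (log2 change 0.50, SE 0.09, adjusted p = 7.23e-05 at 24 h), with 0.61 ± 0.09 at 48 h and 0.71 ± 0.09 at 96 h. Syvn1, the ubiquitin ligase HRD1, had 172 and 177 CPM at 0 h, 211 and 202 at 6 h and 254 and 212 at 24 h. It had 242 and 240.3 at 48 h, 238 and 247 at 72 h and 217 and 222 at 96 h. Its change was 0.47 ± 0.07 at 48 h. Edem1 had 252 and 249 CPM at 0 h, 278 and 276 at 6 h and 337 and 320.5 at 24 h. It had 405 and 404 at 48 h, 384 and 377 at 72 h and 329 and 325 at 96 h. It was highest at 48 h (log2 change 0.69, SE 0.05, adjusted p = 8.03e-11). The calls of these 3 genes from 24 to 96 h held without any 1 library. Derl1 and Derl2 were called at 24 h (0.27 ± 0.07 and 0.21 ± 0.07), where adjusted p rose above 0.05 for Derl1 (0.285) and Derl2 (0.547) without Sox17-FKBP 24 h replicate 1.

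All 4 isomerases rose at 48 and 72 h. Pdia6 had 1268 and 1245 CPM at 48 h, against 838 and 825 at 0 h (log2 change 0.60, SE 0.06, adjusted p = 2.82e-09). P4hb had 4449.7 and 4383 CPM at 48 h, against 3272 and 3302 at 0 h (log2 change 0.43, SE 0.06, adjusted p = 4.6e-06). Pdia4, the ERp72 isomerase, had 818 and 810.4 CPM at 48 h, against 624 and 609.7 at 0 h (log2 change 0.40, SE 0.06, adjusted p = 7.72e-06). No 48 h library of these lies within the 0 h range, and by 96 h P4hb was the 1 isomerase called (0.28 ± 0.06). Adjusted p at 72 h rose above 0.05 for Pdia3 (0.0701) without Sox17-FKBP 0 h replicate 1.

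Among the chaperones 7 of 11 rose at 48 h. Dnajb9 had 24.4 and 22.5 CPM at 0 h, 24.3 and 24.97 at 6 h and 23.7 and 30.1 at 24 h. It had 33.2 and 35.3 at 48 h, 39.7 and 36.8 at 72 h and 40.3 and 43.7 at 96 h. Its libraries from 48 h lie above 0 h (log2 change 0.55, SE 0.10, adjusted p = 0.000152). Calr had 4935 and 4843 CPM at 48 h, against 3843 and 3835 at 0 h (log2 change 0.35, SE 0.07, adjusted p = 0.000164). Sdf2l1, a partner of ERdj3, had 121 and 116 CPM at 48 h, against 89.7 and 92.9 at 0 h (log2 change 0.37, SE 0.12, adjusted p = 0.0199). Hspa5 rose by 0.26, Hyou1, the nucleotide exchange factor GRP170, by 0.23, Creld2, a secreted protein induced by ER stress, by 0.29 and Manf by 0.19 on the log2 scale. Falls were 2 in all: Hsp90b1 at 24 h, with 998 and 1828 CPM, against 2176 and 2083 at 0 h (log2 change -0.59, SE 0.18, adjusted p = 0.0116), and Dnajb11 at 96 h, with 383 and 395 CPM, against 450.0 and 457 (log2 change -0.22, SE 0.06, adjusted p = 0.00286). The fall of Hsp90b1 was lost without replicate 1 at 24 h (adjusted p = 0.419), and at 48 h adjusted p rose above 0.05 for Sdf2l1 (0.112) and Creld2 (0.196) without Sox17-FKBP 0 h replicate 1, Manf (0.236) without Sox17-FKBP 48 h replicate 1.

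Of the sensors and their factors, Ern1 had 21.7 and 20.2 CPM at 0 h, 20.6 and 19.7 at 6 h and 24.8 and 24.01 at 24 h. It had 30.9 and 31.6 at 48 h, 32.8 and 28.9 at 72 h and 31.8 and 29.97 at 96 h. Its pair at 48 h lies above the pair at 0 h (log2 change 0.58, SE 0.09, adjusted p = 2.08e-05). Xbp1 had 164 and 166 CPM at 0 h, 196 and 183 at 6 h and 233 and 199 at 24 h. It had 213 and 218 at 48 h, 208 and 213 at 72 h and 189 and 186 at 96 h. It was called at 24 h (log2 change 0.39, SE 0.07, adjusted p = 0.000244), 48 h (0.38 ± 0.07) and 72 h (0.35 ± 0.07), while its call at 96 h (0.18 ± 0.07) was lost in each fit that left out a library, with adjusted p of 0.114 to 0.174. Eif2ak3 was called at 24 h (0.25 ± 0.09) and 72 h (0.22 ± 0.09), and adjusted p rose above 0.05 for Eif2ak3 (0.136) without Sox17-FKBP 0 h replicate 2 and for Eif2ak3 (0.208) without Sox17-FKBP 72 h replicate 1. Atf6 had 98.8 and 99.8 CPM at 48 h, against 109.7 and 110.0 at 0 h (-0.15 ± 0.08), and was not called. Between 24 and 48 h 15 members were called, all higher at 48 h, beside 33.2% of all genes, 15% higher and 18.2% lower. Of these Pdia6 (0.38), Edem1 (0.30), Ern1 (0.36), Ddit3 (0.47) and Asns (0.32) held whichever library was left out, while the count was 9 without replicate 1 at 24 h or replicate 2 at 48 h, and 3 in a fit of these 4 libraries alone.

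**Figure D3:**
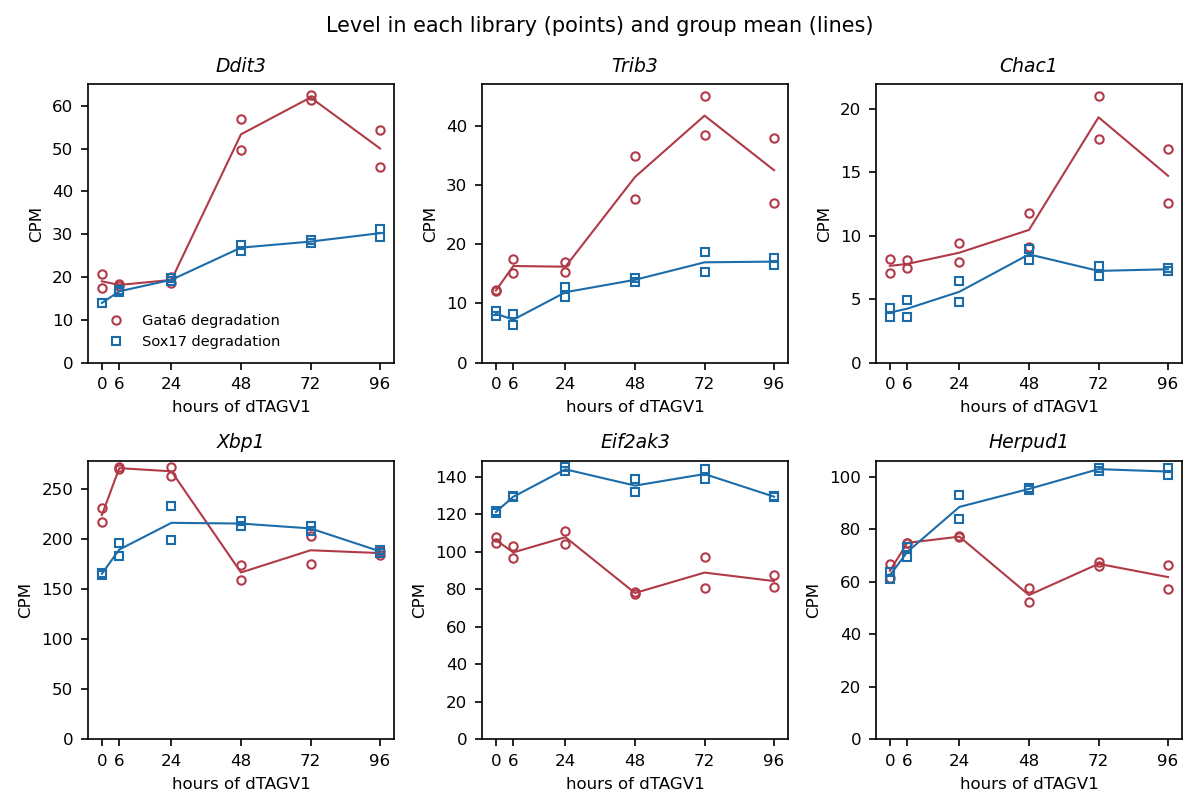
Levels of Ddit3, Trib3, Chac1, Xbp1, Eif2ak3 and Herpud1 over hours of dTAGV1, in CPM on a linear axis from 0. Points are the 2 libraries of each time, lines join their means, circles are the Gata6-FKBP line and squares the Sox17-FKBP line. Ddit3 stands at 61.4 and 62.6 CPM at 72 h after Gata6 degradation, and Herpud1 at 104 and 102 CPM at 72 h after Sox17 degradation.

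The responses were tested against each other as the change after Gata6 degradation minus the change after Sox17 degradation. At 48 h the test called 1 member higher and 9 lower in the Gata6 response, beside 17.1% of all genes, 6.16% higher and 11% lower. At 96 h it called 4, all lower, beside 20.2% of all genes, 6.48% higher and 13.7% lower. Herpud1, Syvn1, Xbp1 and Eif2ak3 were called at both times. Herpud1 changed by -0.22 after Gata6 and by 0.61 after Sox17 degradation at 48 h, a difference of -0.84 ± 0.12 (adjusted p = 1.84e-05), and the difference was -0.76 ± 0.12 at 96 h. Xbp1 changed by -0.43 and 0.38, a difference of -0.81 ± 0.10 (adjusted p = 2.17e-06), and -0.45 ± 0.10 at 96 h. The lines did not start level in Xbp1, which had 217 and 231 CPM at 0 h in the Gata6-FKBP line and 164 and 166 CPM in the Sox17-FKBP line. Syvn1 differed by -0.54 ± 0.10 at 48 h and -0.32 ± 0.10 at 96 h, and Eif2ak3 by -0.61 ± 0.13 and -0.43 ± 0.13. At 48 h Dnajb11 (-0.46 ± 0.08), Pdia6 (-0.35 ± 0.08), Manf (-0.37 ± 0.11), Calr (-0.31 ± 0.09) and Atf4 (-0.32 ± 0.11) were also lower. Ddit3 was the 1 member higher in the Gata6 response, by 0.55 ± 0.15 (adjusted p = 0.014). Herpud1 and Xbp1 held at both times without any 1 library, while adjusted p rose above 0.05 at 48 h for Ddit3 (0.0889) without Gata6-FKBP 48 h replicate 1, Calr (0.121) and Manf (0.0813) and Atf4 (0.215) without Gata6-FKBP 0 h replicate 2, and at 96 h for Syvn1 (0.135) without Gata6-FKBP 0 h replicate 2 and Eif2ak3 (0.074) without Gata6-FKBP 96 h replicate 1.

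The FoxA2-/- mutation went with mostly opposite changes of the response in the tagged lines, before any degradation. In the Gata6-FKBP line 4 members were higher and 20 lower in FoxA2-/- than in intact cells at 0 h, beside 48.3% of all genes, 24.6% higher and 23.7% lower. In the Sox17-FKBP line 25 members were higher and 2 lower, beside 50.6% of all genes, 26% higher and 24.6% lower. The median log2 change of the members was -0.31 in the Gata6-FKBP line and 0.54 in the Sox17-FKBP line, and that of all genes 0.00 and 0.02. The difference between the lines passed for 25 of 32 members, all lower in the Gata6-FKBP line, beside 39% of all genes, 19.3% higher and 19.7% lower. The labels give no number of clones per mutant, so the mutation and other differences between the cell lines cannot be told apart. Markers of trophoblast summed to 55.5 and 56.4 CPM in FoxA2-/- and 2.17 and 1.99 CPM in intact Gata6-FKBP cells at 0 h, mostly from Esx1 and Eomes, with Cdx2 at most 0.203 CPM in any library. The 10 extraembryonic endoderm markers summed to 11049.5 and 11841 CPM in FoxA2-/- and 21512 and 22819.6 CPM in intact cells of this line. Lama1, with at least 7172 CPM in every library, holds a large part of this sum, which therefore does not stand for each marker. The part of either list in the result was not tested.

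The ATF4 arm held the largest changes. Asns had 838 and 865 CPM in FoxA2-/- and 134 and 136 CPM in intact Sox17-FKBP cells (log2 change 2.65, SE 0.08, adjusted p = 4.24e-21). It had 606 and 555 CPM in FoxA2-/- and 399 and 459 CPM in intact Gata6-FKBP cells (log2 change 0.44, SE 0.07, adjusted p = 1.57e-05). The gene was higher in both mutants, and the effects differed by -2.22 ± 0.10 (adjusted p = 6.58e-16). The intact lines, however, did not start level in Asns. Trib3 had 33.4 and 33.8 CPM in FoxA2-/- and 7.89 and 8.68 CPM in intact Sox17-FKBP cells (log2 change 2.02, SE 0.19, adjusted p = 3.19e-10). It had 6.9 and 4.35 CPM in FoxA2-/- and 12.1 and 12.3 CPM in intact Gata6-FKBP cells (log2 change -1.11, SE 0.22, adjusted p = 0.000136). The mutants thus stand on opposite sides of the intact cells, a difference of -3.13 ± 0.29 (adjusted p = 8.15e-10). Ddit3 had 8.91 and 10.9 CPM in FoxA2-/- and 17.4 and 20.6 CPM in intact Gata6-FKBP cells (log2 change -0.94, SE 0.12, adjusted p = 2.21e-07). In Sox17-FKBP cells it had 14.1 and 15.2 CPM in FoxA2-/- and 13.9 and 13.96 CPM in intact cells and did not pass (0.07 ± 0.11). Chac1 had 8.06 and 10.9 CPM in FoxA2-/- and 3.61 and 4.28 CPM in intact Sox17-FKBP cells (log2 change 1.26, SE 0.20, adjusted p = 4.57e-06). Atf5 had 114 and 112 CPM in FoxA2-/- and 53.9 and 54.3 CPM in intact Sox17-FKBP cells (1.06 ± 0.12), again without overlap. Atf4 was lower in the Gata6-FKBP mutant (-0.45 ± 0.08) and higher in the Sox17-FKBP mutant (0.44 ± 0.08), a difference of -0.88 ± 0.11. These calls held without any 1 library, while those of Atf5 (-0.29) and Ppp1r15a (-0.25) in the Gata6-FKBP line were lost under median-of-ratios scaling (adjusted p = 0.0834 and 0.0928) and, with the difference of the lines in Chac1, when a library was left out: Atf5 (0.331) without Gata6-FKBP 0 h replicate 2, Ppp1r15a (0.377) without Gata6-FKBP FoxA2-/- 0 h replicate 2, Chac1 (0.182) without Sox17-FKBP FoxA2-/- 0 h replicate 2.

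Folding genes were divided in the same way. Hspa5 had 3821 and 3998 CPM in FoxA2-/- and 2239.7 and 2237 CPM in intact Sox17-FKBP cells (log2 change 0.80, SE 0.06, adjusted p = 1.72e-11). It had 1737 and 1788 CPM in FoxA2-/- and 2250.0 and 2145 CPM in intact Gata6-FKBP cells (log2 change -0.32, SE 0.06, adjusted p = 0.000149). The intact cells of both lines lie within about the same range, and the difference of the effects was -1.12 ± 0.09 (adjusted p = 6.14e-11). Pdia4 had 1175 and 1228 CPM in FoxA2-/- and 624 and 609.7 CPM in intact Sox17-FKBP cells (log2 change 0.96, SE 0.06, adjusted p = 1.16e-13). It had 404 and 399 CPM in FoxA2-/- and 486 and 532 CPM in intact Gata6-FKBP cells (log2 change -0.34, SE 0.06, adjusted p = 3.69e-05). Dnajb9 rose in the Sox17-FKBP line (0.64 ± 0.10) and fell in the Gata6-FKBP line (-0.57 ± 0.12), as did Calr (0.70 ± 0.07 and -0.40 ± 0.07), Sdf2l1 (0.77 ± 0.12 and -0.36 ± 0.12) and Pdia6 (0.38 ± 0.06 and -0.54 ± 0.06). Manf was higher in both mutants, with 642 and 652 CPM in FoxA2-/- and 359 and 371 CPM in intact Sox17-FKBP cells (log2 change 0.83, SE 0.07, adjusted p = 1.92e-10). In Gata6-FKBP cells it had 504 and 503 CPM in FoxA2-/- and 338 and 366 CPM in intact cells (log2 change 0.52, SE 0.07, adjusted p = 1.4e-06). Creld2 had 263 and 276 CPM in FoxA2-/- and 153 and 166 CPM in intact Sox17-FKBP cells (log2 change 0.76, SE 0.10, adjusted p = 1.74e-07). P4hb, at 3010.2 and 3207 CPM in FoxA2-/- and 3272 and 3302 CPM in intact Sox17-FKBP cells, did not pass (-0.08 ± 0.06). Left-out libraries ended the call of Sdf2l1 (0.3) without Gata6-FKBP 0 h replicate 2 and the difference of the lines in Manf (0.111) without Gata6-FKBP 0 h replicate 2, both as adjusted p.

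Among the degradation factors, Herpud1 had 103 and 121 CPM in FoxA2-/- and 61.1 and 63.9 CPM in intact Sox17-FKBP cells (log2 change 0.84, SE 0.09, adjusted p = 2.55e-09). In Gata6-FKBP cells it had 61.6 and 54.1 CPM in FoxA2-/- and 61.5 and 66.98 CPM in intact cells and did not pass (-0.15 ± 0.09). Syvn1 was higher in the Sox17-FKBP mutant (0.56 ± 0.07) and lower in the Gata6-FKBP mutant (-0.32 ± 0.07), and Edem1 was higher in the Sox17-FKBP mutant (0.60 ± 0.05). Derl2 was higher in both mutants (0.25 ± 0.07 in the Sox17-FKBP and 0.43 ± 0.07 in the Gata6-FKBP line). Sel1l was lower in both (-0.23 ± 0.09 and -0.42 ± 0.09). Of the sensors, Eif2ak3 was lower in both lines, with 60.9 and 62.7 CPM in FoxA2-/- and 108 and 105 CPM in intact Gata6-FKBP cells (log2 change -0.78, SE 0.09, adjusted p = 3.83e-08). In Sox17-FKBP cells it had 98.995 and 103 CPM in FoxA2-/- and 122 and 121 CPM in intact cells (-0.26 ± 0.09). Xbp1 had 233 and 243 CPM in FoxA2-/- and 164 and 166 CPM in intact Sox17-FKBP cells (log2 change 0.53, SE 0.07, adjusted p = 7.29e-07), while it was lower in the Gata6-FKBP mutant (-0.30 ± 0.07). Ern1 (0.56 ± 0.09) and Atf6 (0.26 ± 0.08) rose in the Sox17-FKBP mutant. Adjusted p in the Sox17-FKBP line rose above 0.05 for Sel1l (0.148) and Derl2 (0.0994) without Sox17-FKBP 0 h replicate 1, for Eif2ak3 (0.0931) without Sox17-FKBP FoxA2-/- 0 h replicate 1 and for Atf6 (0.0772) without Sox17-FKBP FoxA2-/- 0 h replicate 2.

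**Figure D4:**
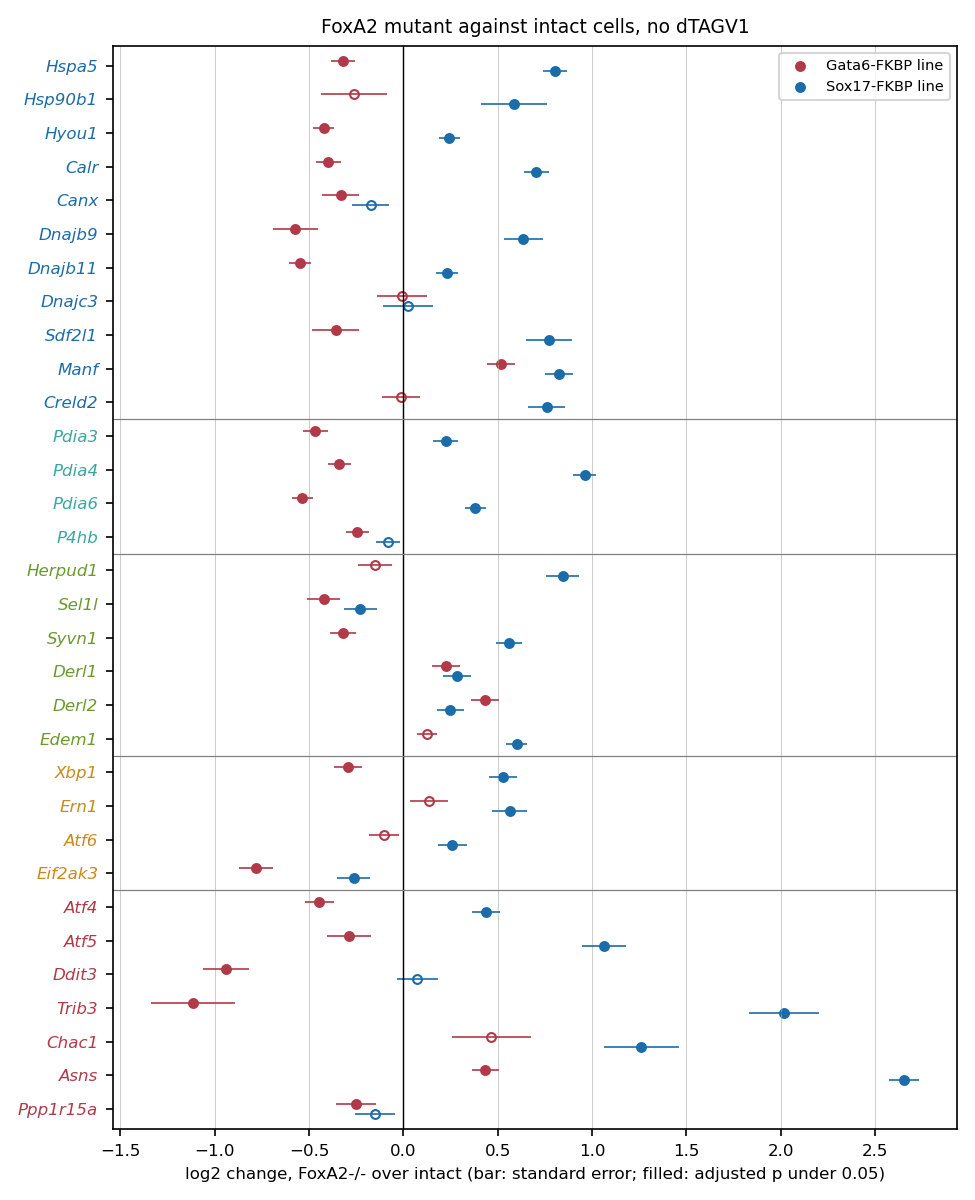
Log2 change of each member in FoxA2-/- against intact cells at 0 h, in the Gata6-FKBP line (red) and the Sox17-FKBP line (blue). The vertical axis lists the 32 members by role, bars are standard errors, and filled points passed an adjusted p under 0.05. Most red points lie left of 0 and most blue ones right of it, the farthest right being Asns at 2.65 and Trib3 at 2.02 in the Sox17-FKBP line.

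Degradation in the FoxA2-/- cells moved few members and few of all genes, and the members stood near the share of all genes in both lines. After 48 h of Gata6 degradation edgeR called 0 members and DESeq2 0, with 4 at an unadjusted p under 0.05, beside 0.239% of all genes, 0.164% higher and 0.0752% lower. Ddit3 had 10.5 and 8.58 CPM at 48 h and 8.91 and 10.9 CPM at 0 h in the mutant, where the intact line had 56.96 and 49.8 CPM at 48 h and 17.4 and 20.6 CPM at 0 h. After 48 h of Sox17 degradation edgeR called Asns, with 619 and 662 CPM at 48 h and 838 and 865 CPM at 0 h (log2 change -0.41, SE 0.07, adjusted p = 0.000829), beside 2.76% of all genes, 1.52% higher and 1.23% lower. The responses of mutant and intact cells were tested against each other, as mutant minus intact. For Gata6 the test called 3 members higher and 8 lower, beside 27% of all genes, 16.1% higher and 10.9% lower, or 2 and 11 under median-of-ratios scaling. Lower in the mutant's response were Ddit3 (-1.54 ± 0.17, adjusted p = 1.16e-07), Trib3 (-1.14 ± 0.30), Dnajb9 (-0.75 ± 0.17), Edem1 (-0.53 ± 0.08) and Pdia3 (-0.40 ± 0.09). Xbp1 (0.40 ± 0.11), Eif2ak3 (0.41 ± 0.13) and Dnajb11 (0.25 ± 0.08), which fell in the intact line, were higher in the mutant's response. For Sox17 it called 20 members, all lower in the mutant's response, beside 14.4% of all genes, 6.9% higher and 7.51% lower. The members' median log2 change was -0.04 in the mutant and 0.32 in intact cells. For most members the Sox17 difference thus repeats the intact response with its sign turned. Chac1 differed by -1.18 ± 0.28, Ddit3 by -0.80 ± 0.15, Asns by -0.73 ± 0.10, Ern1 by -0.65 ± 0.13, Pdia6 by -0.64 ± 0.08, Edem1 by -0.62 ± 0.08 and Herpud1 by -0.61 ± 0.12. The Sox17 count was 13 without replicate 1 at 0 h or replicate 2 at 48 h of the intact cells, and 12 without replicate 2 at 0 h or replicate 1 at 48 h of the mutant. For Gata6 adjusted p rose above 0.05 for Trib3 (0.103) without Gata6-FKBP FoxA2-/- 0 h replicate 1, Xbp1 (0.0545) without Gata6-FKBP FoxA2-/- 48 h replicate 2, Eif2ak3 (0.0582) without Gata6-FKBP FoxA2-/- 48 h replicate 1 and Dnajb11 (0.122) without Gata6-FKBP 48 h replicate 2.

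In the BMP4 series most chaperones and isomerases were lower at 72 h, led by Creld2 and Calr, while 3 chaperones, Chac1, Trib3 and Edem1 were higher. At 72 h 6 members were higher and 15 lower than at 0 h, beside 62.8% of all genes, 31.6% higher and 31.2% lower. The share of members called, 65.6%, was near that of all genes, and their median log2 change was -0.15, against 0.00 for all genes. Those that fell were 7 of 11 chaperones, 3 of 4 isomerases, 3 of 6 degradation factors, Xbp1 and Atf5. Calr had 1893 and 1962 CPM at 72 h, against 5154 and 5218 at 0 h (log2 change -1.43, SE 0.07, adjusted p = 9.59e-16). Creld2 had 79.5 and 78.9 CPM at 72 h, against 219.6 and 224 at 0 h (log2 change -1.49, SE 0.10, adjusted p = 1.6e-12). Sdf2l1 had 46.5 and 41.5 CPM at 72 h, against 102 and 101 at 0 h (log2 change -1.21, SE 0.13, adjusted p = 6.12e-09). The pairs at 72 h lie close together and far below those at 0 h. Manf fell by 1.17, Hyou1 fell by 1.06, Dnajb11 fell by 0.99 and Hspa5 fell by 0.57 on the log2 scale. P4hb had 1955 and 2026 CPM at 72 h, against 4089.7 and 4022 at 0 h (log2 change -1.03, SE 0.06, adjusted p = 1.93e-13), and Pdia4 changed by -0.84 ± 0.06. Of the degradation factors Derl1 had 144 and 142 CPM at 72 h, against 238 and 238 at 0 h (log2 change -0.73, SE 0.08, adjusted p = 4.23e-09). Syvn1 changed by -0.59 ± 0.07, Herpud1 by -0.44 ± 0.09 and Xbp1 by -0.22 ± 0.07. Adjusted p rose above 0.05 for Xbp1 (0.0658) without BMP4 72 h replicate 1 and for Atf5 (0.142) without BMP4 72 h replicate 2.

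Rises at 72 h were those of Chac1, Trib3, Dnajb9, Dnajc3, Canx and Edem1. Chac1 had 38.7 and 34.5 CPM at 72 h, against 18.6 and 19.1 at 0 h (log2 change 0.95, SE 0.18, adjusted p = 3.3e-05). Trib3 had 55.4 and 45.6 CPM at 72 h, against 30.6 and 28.1 at 0 h (log2 change 0.78, SE 0.18, adjusted p = 0.000358). Dnajb9 had 29.3 and 27.98 CPM at 72 h, against 16.7 and 17.3 at 0 h (log2 change 0.75, SE 0.11, adjusted p = 1.6e-06). None of these pairs overlap, and the changes of the other members called higher were 0.45 ± 0.13 for Dnajc3, 0.31 ± 0.10 for Canx and 0.21 ± 0.05 for Edem1. Reads outside genes were 10.4 per 100 at 72 h and 5.66 at 0 h, and with them as a covariate the falls of Calr, Creld2, Sdf2l1, Manf, Hyou1, Hspa5, P4hb, Pdia4 and Pdia6 were still called. In that fit the changes of Atf5 (0.258), Dnajc3 (-0.542), Canx (-0.393) and Xbp1 (0.284) turned round. Hsp90b1, not called without the covariate, was at -0.940 with it. There adjusted p was 0.0577 for Chac1, 0.0553 for Trib3, 0.797 for Dnajb9, 0.591 for Edem1, 0.255 for Syvn1, 0.339 for Herpud1 and 0.0509 for Derl1.

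After 24 h of BMP4, 6 members were higher and 9 lower than at 0 h, beside 43.6% of all genes, 21.3% higher and 22.2% lower. The share of members called, 46.9%, was near that of all genes. Sdf2l1, low at 72 h, had 129.7 and 184 CPM at 24 h, against 102 and 101 at 0 h (log2 change 0.62, SE 0.12, adjusted p = 3e-04). Creld2 (0.50 ± 0.10) and Manf (0.32 ± 0.07) were higher with it. Hsp90b1 had 755 and 563 CPM at 24 h, against 1036 and 1016 at 0 h (log2 change -0.64, SE 0.18, adjusted p = 0.00487), and Dnajc3 (-0.52 ± 0.13), Dnajb9 (-0.54 ± 0.12) and Pdia3 (-0.32 ± 0.07) were lower. Trib3 had 35.9 and 51.7 CPM at 24 h, against 30.6 and 28.1 at 0 h (log2 change 0.57, SE 0.18, adjusted p = 0.0103), and Atf5 changed by 0.49 ± 0.11. Of the sensors Ern1 (-0.36 ± 0.11) and Atf6 (-0.31 ± 0.08) were lower. The pair at 24 h is wide: 5 members were called without its replicate 2, and a fit of the 4 libraries alone called 0, with an adjusted p of 0.112 for Sdf2l1, where DESeq2 on all libraries called 17 and edgeR's unadjusted p was under 0.05 for 19. Sdf2l1, Creld2, Dnajb9 and Pdia3 held whichever library was left out. From 24 to 72 h 10 members were higher and 16 lower, beside 70.3% of all genes, 35.3% higher and 35% lower, and 10 were called with the covariate. The largest falls were those of Creld2 (-1.98 ± 0.10), Sdf2l1 (-1.83 ± 0.13), Manf (-1.49 ± 0.08) and Calr (-1.46 ± 0.07).

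**Figure D5:**
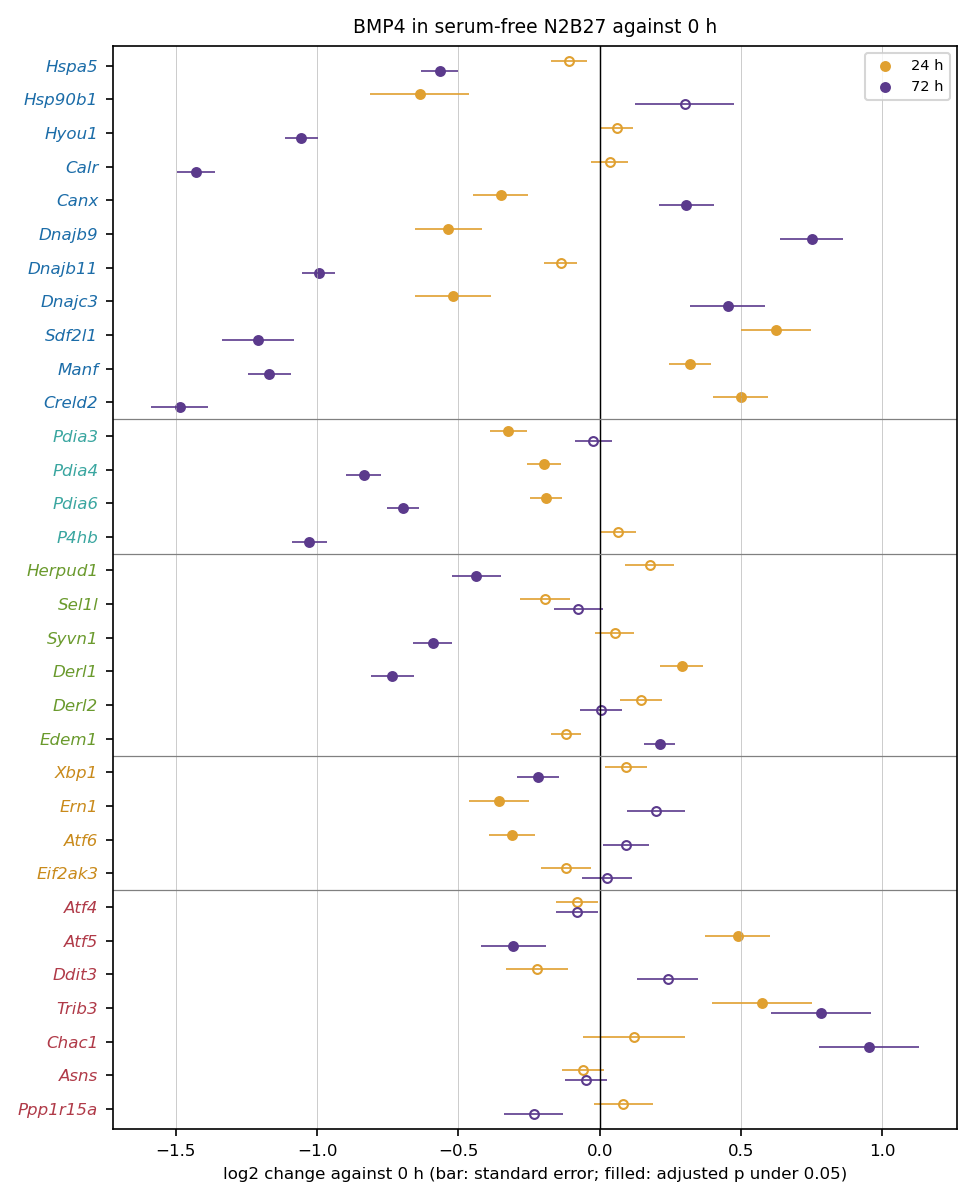
Log2 change of each member at 24 h and at 72 h of BMP4 against 0 h. The vertical axis lists the 32 members by role, bars are standard errors, and filled points passed an adjusted p under 0.05. At 72 h Creld2 lies at -1.49 and Calr at -1.43, while at 24 h Sdf2l1 lies at 0.62.

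The 0 h cells of that series differ from the other Gata6-FKBP cells at 0 h in basal medium and serum together. In N2B27 with 1% FBS 14 members were higher and 9 lower than in the standard medium, beside 41.5% of all genes, 20.1% higher and 21.4% lower. Herpud1 had 142 and 141 CPM in N2B27 and 61.5 and 66.98 CPM in the standard medium (log2 change 1.14, SE 0.09, adjusted p = 6.87e-11). Syvn1 had 335 and 342 CPM in N2B27 and 175 and 198 CPM in the standard medium (log2 change 0.86, SE 0.07, adjusted p = 1.42e-10). Chac1 had 18.6 and 19.1 CPM in N2B27 and 7.104 and 8.16 CPM in the standard medium (log2 change 1.31, SE 0.20, adjusted p = 7.17e-06). Each N2B27 pair lies far above the other, and Trib3 rose with them (1.27 ± 0.20). Asns went against its arm, with 289 and 287 CPM in N2B27 and 399 and 459 CPM in the standard medium (log2 change -0.58, SE 0.07, adjusted p = 4.73e-07). Among the isomerases P4hb (0.44 ± 0.06) and Pdia4 (0.33 ± 0.06) were higher, and Pdia3 (-0.39 ± 0.07) and Pdia6 (-0.35 ± 0.06) lower, in N2B27. Among the chaperones Calr (0.37 ± 0.07) and Creld2 (0.40 ± 0.10) were higher, and Canx (-0.67 ± 0.10) and Hsp90b1 (-0.72 ± 0.18) lower. Eif2ak3 was higher (0.47 ± 0.09) and Atf6 lower (-0.34 ± 0.08). With 1 library left out, adjusted p rose above 0.05 for Hsp90b1 (0.103) without Gata6-FKBP 0 h replicate 1.

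Both tagged lines at 0 h had lower levels of ATF4 arm genes and of Herpud1 than the parental cells. In the Gata6-FKBP line 3 members were higher and 16 lower than in parental cells, beside 47.8% of all genes, 23.4% higher and 24.4% lower. In the Sox17-FKBP line 5 members were higher and 17 lower, beside 57.1% of all genes, 25.8% higher and 31.3% lower, and both comparisons use the same parental libraries. Chac1 had 7.104 and 8.16 CPM in the Gata6-FKBP line and 3.61 and 4.28 CPM in the Sox17-FKBP line, against 38.5 and 27.1 CPM in parental cells. The changes were -2.11 ± 0.19 (adjusted p = 6.56e-10) in the Gata6-FKBP line and -3.04 ± 0.19 (adjusted p = 2.07e-13) in the Sox17-FKBP line. Trib3 had 12.1 and 12.3 CPM in the Gata6-FKBP line and 7.89 and 8.68 CPM in the Sox17-FKBP line, against 44.1 and 35.4 CPM in parental cells (-1.71 ± 0.19 and -2.26 ± 0.19). Herpud1 had 61.5 and 66.98 CPM in the Gata6-FKBP line and 61.1 and 63.9 CPM in the Sox17-FKBP line, against 140.4 and 119.9 CPM in parental cells (-1.02 ± 0.09 and -1.06 ± 0.09). The parental pairs lie above all 4 tagged libraries in these genes. Ddit3 (-1.05 ± 0.11 and -1.50 ± 0.11), Calr (-0.46 ± 0.07 and -0.52 ± 0.07), P4hb (-0.46 ± 0.06 and -0.32 ± 0.06) and Pdia6 (-0.25 ± 0.06 and -0.53 ± 0.06) were lower in both lines. Eif2ak3 was higher in both (0.55 ± 0.09 and 0.74 ± 0.09), as was Atf6 (0.26 ± 0.08 and 0.29 ± 0.08). All 7 members of the ATF4 arm were lower in the Sox17-FKBP line, Asns with a change of -1.63 ± 0.08, and 4 of 7 in the Gata6-FKBP line. The 9 fibroblast markers summed to 1303 and 1757 CPM in the parental libraries and 5.46 to 11.8 CPM elsewhere, with Col1a1 at up to 735 CPM and Thy1 at most 0.0963 CPM in any library, and their part in these differences was not tested. Adjusted p rose above 0.05 for Atf6 (0.0847) without Gata6-FKBP 0 h replicate 1.

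Set against each other, the tagged lines differed across the ATF4 arm, where all 7 members were higher in the Gata6-FKBP line. Over all 32, 9 members were higher and 4 lower in it, beside 48% of all genes, 27.4% higher and 20.6% lower, or 9 and 7 under median-of-ratios scaling. With TMM scaling the share of members called, 40.6%, was below that of all genes. Asns had 399 and 459 CPM in the Gata6-FKBP and 134 and 136 CPM in the Sox17-FKBP line (log2 change 1.67, SE 0.08, adjusted p = 1.47e-16). Ppp1r15a had 92.1 and 104 CPM in the Gata6-FKBP and 48.3 and 47.6 CPM in the Sox17-FKBP line (log2 change 1.03, SE 0.10, adjusted p = 3.58e-09). Atf5 had 102 and 117 CPM in the Gata6-FKBP and 53.9 and 54.3 CPM in the Sox17-FKBP line (log2 change 1.02, SE 0.12, adjusted p = 3.98e-08). None of these pairs overlap, and Xbp1 was also higher (0.44 ± 0.07), while Dnajc3 (-0.74 ± 0.13) and Canx (-0.61 ± 0.10) were lower in the Gata6-FKBP line. In the ATF4 arm the calls lost with 1 library left out, by adjusted p, were Ddit3 (0.0847) without Gata6-FKBP 0 h replicate 2 and Trib3 (0.126) without Sox17-FKBP 0 h replicate 1.

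Other genes of the same pathway, in lists of their own, were set beside the members. Over all genes 40.1% were called after 48 h of Gata6 degradation, 18.2% higher and 21.9% lower, and 30.9% after 48 h of Sox17 degradation, 16.3% higher and 14.6% lower, and the counts of each list are read against these shares. Of 21 other folding enzymes 12 were higher and 3 lower after 48 h of Gata6 degradation, and 14 were higher and 1 lower after 48 h of Sox17 degradation. Ero1a, the oxidase that recharges the isomerases, averaged 322 CPM at 48 h, against 79.5 CPM at 0 h after Gata6 degradation (2.02 ± 0.14), and its change exceeded that after Sox17 degradation by 1.34 ± 0.19. Ganab, a glucosidase subunit, changed by 0.43 ± 0.06 and Pdia5 by 0.47 ± 0.07 after Sox17 degradation. Of 20 other degradation factors 4 were higher and 5 lower after Gata6 and 9 were higher and 1 lower after Sox17 degradation, the glycan lectin Os9 changing by 0.52 ± 0.06 after Sox17 degradation. Of 27 translocon, signal peptidase and oligosaccharyltransferase genes 9 were higher and 3 lower after Gata6 degradation, and 10, all higher, were called after Sox17 degradation. Of 18 COPII transport genes 3 were higher and 2 lower after Gata6 degradation, and 9, all higher, after Sox17 degradation, the coat gene Sec24c changing by 0.34 ± 0.06. Of 16 other sensors and membrane-bound factors 6 were higher and 4 lower after Gata6 and 7 were higher and 1 lower after Sox17 degradation, where Creb3l2, an ER-anchored transcription factor of secretory genes, averaged 1281 CPM at 48 h, against 806 CPM at 0 h (0.67 ± 0.06).

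Of 34 other ATF4 targets 10 were higher and 6 lower after 48 h of Gata6 degradation, and 8 were higher and 6 lower after Sox17 degradation. The shares of all genes called were 40.1% after Gata6 and 30.9% after Sox17 degradation. Nupr1, a stress-induced chromatin protein, averaged 36.3 CPM at 48 h, against 3.77 CPM at 0 h after Gata6 degradation (3.27 ± 0.18) and 22.4 CPM at 48 h, against 3.69 CPM at 0 h after Sox17 degradation (2.60 ± 0.17). In the FoxA2-/- Sox17-FKBP cells 28 were higher and 2 lower, beside 50.6% of all genes, 26% higher and 24.6% lower, with a median log2 change of 0.95, against 0.02 for all genes. Slc6a9, a glycine transporter, averaged 32.1 CPM in FoxA2-/-, against 2.18 CPM in intact Sox17-FKBP cells (3.85 ± 0.14), and Cars1, the cysteinyl-tRNA synthetase, 253 CPM in FoxA2-/-, against 91.4 CPM in intact cells (1.47 ± 0.07). In the FoxA2-/- Gata6-FKBP cells 13 were higher and 10 lower, beside 48.3% of all genes, 24.6% higher and 23.7% lower. Against parental cells 28 of them were called in the Sox17-FKBP line, all lower, and 3 were higher and 19 lower in the Gata6-FKBP line. Over all genes 57.1% were called in the Sox17-FKBP line, 25.8% higher and 31.3% lower, and 47.8% in the Gata6-FKBP line, 23.4% higher and 24.4% lower. The tryptophanyl-tRNA synthetase gene Wars1 changed by -1.25 ± 0.08 in the Sox17-FKBP line. After 72 h of BMP4 11 were higher and 18 lower, beside 62.8% of all genes, 31.6% higher and 31.2% lower. Of the other folding enzymes 3 were higher and 14 lower at that time, Ppib, a prolyl isomerase, changing by -1.09 ± 0.08, and of the translocon list 5 were higher and 19 lower.

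The cytosolic heat shock genes, which answer misfolding outside the ER, were mostly lower where ER genes were higher in the degradation courses. Of 21 genes 2 were higher and 12 lower after 48 h of Gata6 degradation, where 40.1% of all genes were called, and Ahsa1, which stimulates Hsp90, averaged 99.7 CPM at 48 h, against 188 CPM at 0 h (-0.92 ± 0.07). After 48 h of Sox17 degradation 11 were called, all lower, beside 30.9% of all genes, and Hsp90ab1, a cytosolic Hsp90, averaged 2656 CPM at 48 h, against 4006 CPM at 0 h (-0.59 ± 0.05). In the FoxA2-/- cells 8 were higher and 1 lower in the Gata6-FKBP line, and 6 were higher and 3 lower in the Sox17-FKBP line. Of all genes 48.3% were called in the Gata6-FKBP and 50.6% in the Sox17-FKBP comparison, above the list's share in both. At 72 h of BMP4 5 were higher and 11 lower, where 62.8% of all genes were called.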

How the data were processed

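RNA-seq libraries were described per gene by raw read counts deposited by the authors, with HISAT2, HTSeq and mm10 named in the submitters' processing notes. Of 47729 gene IDs 47224 had a symbol, and the total rows that name no gene were left out of library sizes and tests. Chromatin samples, 14 in all, were not analysed here. All 40 libraries were fitted in 1 edgeR (4.0.16, R 4.3.3, limma 3.58.1) quasi-likelihood model, 1 coefficient per group, after TMM normalisation and edgeR's default expression filter, which kept 14625 genes and left 20 residual degrees of freedom (biological coefficient of variation 8.22%). Each of 28 comparisons was adjusted by Benjamini-Hochberg at 0.05. CPM use TMM-scaled library sizes. The script was tested on simulated data. Other settings tried were DESeq2 (1.42.0), scaling by median of ratios, dropping the filter, only the libraries compared, a replicate block, reads outside genes as a covariate, and leaving out each library. The members and lists were chosen with earlier results of these data known. Members are named by role, with library values for up to 3 called per role with the largest change and those against their role, and up to 2 genes of each other list with the smallest adjusted p.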

Additional observations from a re-analysis of the deposited data

Results flagged for a closer look

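The change of the members differed between groups under the same contrast in 5 tests of the difference itself, each by edgeR's quasi-likelihood test. The response to Gata6 degradation minus that to Sox17 degradation was called for 10 of 32 members at 48 h, beside 17.1% of all genes, and for 4 at 96 h, where 20.2% of all genes were called and the members' share is below that. The response of FoxA2-/- minus intact cells at 48 h was called for 11 members after Gata6 degradation, beside 27% of all genes, with the largest differences in Ddit3 (-1.54 on the log2 scale) and Trib3 (-1.14). It was called for 20 members after Sox17 degradation, beside 14.4% of all genes, with Chac1 (-1.18) the largest. Few members moved in FoxA2-/- cells, so for most members these differences repeat the intact responses with the sign turned. The effect of the FoxA2-/- mutation in the Gata6-FKBP line minus that in the Sox17-FKBP line was called for 25 members, beside 39% of all genes. Its differences in the ATF4 arm were -3.13 for Trib3, -2.22 for Asns, -1.35 for Atf5 and -1.01 for Ddit3. The intact lines did not start level in these genes, all higher in the Gata6-FKBP line at 0 h. Asns had 399 and 459 CPM there and 134 and 136 CPM in the intact Sox17-FKBP line. Atf5 had 102 and 117 CPM in the intact Gata6-FKBP and 53.9 and 54.3 CPM in the intact Sox17-FKBP line. Among the folding genes they were -1.30 for Pdia4, -1.21 for Dnajb9, -1.13 for Sdf2l1, -1.12 for Hspa5 and -1.10 for Calr.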

How the results depend on the processing

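Over 28 comparisons 446 changes of members were called. Of these 97.1% were still called in the same direction under median-of-ratios scaling, 93.3% without the filter, 97.8% with DESeq2, 80.9% with only the libraries compared and 77.8% with reads outside genes as a covariate, and 82% of 2064 when 1 library was left out. The labels give no pairing of samples by replicate number. Correlations of same-numbered deviations ran from -0.15 to 0.15, with 1 of 23 above 0.1 and 3 below -0.1. With 1 deviation per group they cannot decide whether same-numbered samples shared a day or culture. With the replicate block 97.5% of the calls were kept.

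With only the libraries compared, which leaves fewer degrees of freedom, the number of members called was 4 for Gata6 degradation at 6 h, 6 at 24 h and 10 at 72 h. It was 5 for Sox17 degradation at 6 h, 0 at 24 h, 23 at 96 h and 3 between 24 and 48 h, 2 for Sox17 degradation in FoxA2-/- cells and 0 for BMP4 at 24 h. DESeq2 called 1 for Sox17 degradation at 6 h and 2 in FoxA2-/- cells. Without the filter 1 was called for Gata6 degradation in FoxA2-/- cells. With the covariate the number was 1 for Sox17 degradation at 6 h, 8 between 24 and 48 h and 2 in FoxA2-/- cells, 10 for BMP4 between 24 and 72 h, and 7 for the 96 h difference between Gata6 and Sox17 degradation. The cause was not tested.

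When 1 library was left out the number called ran from 0 to 12 for Gata6 degradation at 6 h, 1 to 13 at 24 h, 12 to 17 at 72 h and 12 to 16 at 96 h. It ran from 7 to 21 for Sox17 degradation at 24 h, 9 to 13 between 24 and 48 h, 12 to 17 for its mutant minus intact response, and 5 to 19 for BMP4 at 24 h.

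With the covariate these log2 changes had the opposite sign, at the value given, and 12 of them were calls without it. Not called without it were Hsp90b1 and Dnajc3 at 72 h of Gata6 degradation and Hsp90b1 at 72 h of BMP4 against 0 h. The same holds for Xbp1 between 24 and 48 h of Sox17 degradation and in the Gata6-FKBP line against parental cells. Hsp90b1 was at -0.502 at 72 h and -0.180 at 96 h of Gata6 degradation, at -0.940 at 72 h of BMP4 against 0 h and at -0.582 against 24 h. Dnajc3 was at -0.259 at 72 h of Gata6 degradation, -0.020 between 24 and 48 h of Sox17 degradation, -0.542 at 72 h of BMP4 against 0 h and -0.245 against 24 h. Canx was at -0.393 at 72 h of BMP4 against 0 h and -0.202 against 24 h. Xbp1 was at 0.200 between 24 and 48 h of Sox17 degradation, 0.284 at 72 h of BMP4 against 0 h, 0.312 against 24 h and 0.179 in the Gata6-FKBP line against parental cells. At 72 h of BMP4 Atf5 was at 0.258 against 0 h, Pdia3 at -0.073 and Ppp1r15a at 0.036 against 24 h. Chac1, with a lowest count of 91, and Trib3, with 97, have the least depth among the members.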
